A study of Mus musculus with 6 samples.

Results

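The Pax and homeobox genes Pax5, Pax8, Otx1, Meis1, Dlx1, Dlx2, Dlx6 and En2 were measured with 15 oligonucleotides (oligos) on a spotted array of neurotransmission genes. They were chosen, with earlier results of these data known, from the class that the files print as DEVELOPMENT, which holds 21 sequence entries. The other 13 entries of that class are also homeobox or Pax genes, among them Dlx3, En1, Otx2, Pax2 and Pax6. All oligos of the 8 genes were kept. They make up 8 of the 288 sequence entries and 15 of the 590 gene oligos on the array. Each gene had 2 oligos except Otx1, which had 1, and each oligo was spotted at 2 places on every slide. Whole-tissue RNA of adult mice of strain B10D2 was compared between cortex, pooled from 6 cortices, and thymus, pooled from 5 thymi, with 15 µg of total RNA labelled with Cy5 from random hexamers for each of 3 arrays per tissue. No treatment or transgene is named in the labels. Since each tissue was represented by a single pool, every p-value below measures the spread between hybridizations and none measures the spread between animals. In tissue RNA, fewer cells of a type and less RNA per cell cannot be told apart.

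Homeobox genes encode transcription factors that bind DNA through a homeodomain, and Pax genes encode factors with a paired domain. Both families pattern the embryo, and some members stay active in particular adult cells. In mouse brain, Dlx1, Dlx2 and Dlx6 mark the lineage of GABAergic interneurons, Otx1 is active in deep-layer cortical neurons, and En2 belongs to the midbrain and cerebellum. Pax5 commits cells to the B lineage, Meis1 works in blood stem and progenitor cells, and Pax8 drives thyroid and kidney development. The thymus is the organ in which T cells mature.

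The cortex label was checked against brain markers on the array. All 4 oligos of the neuron markers Eno2 and Gad2 were higher in cortex, and their summed net signal was 30594 to 63205 on the cortex arrays and 1574.5 to 3367 on the thymus arrays. An entry whose accession is that of Gad2 and whose printed name, GAD67, is the product of another gene was left out. The 2 oligos of the myelin gene Mbp went opposite ways, at 3.66 and -1.44 log2 units, cortex minus thymus. Markers listed for thymocytes, B cells, thymic epithelium and thyroid or parathyroid were not on the array, so the thymus label had no positive check and the share of those cells in the thymus pool was not tested. The cortex arrays were brighter, with a median net signal over gene spots (signal minus local background, in scanner units) of 2491, 1763 and 816.5, against 913.5, 468 and 583.5 on the thymus arrays. A tissue difference therefore depends on how arrays are brought to a common scale, and values are given unscaled and scaled. The image names in the file headers carry a pair of numbers that was read as the scan setting, which no label states. By it, cortex 1, cortex 2 and thymus 1 shared setting 1, cortex 3 and thymus 2 shared setting 2, which had a coarser pixel grid, and thymus 3 stood alone in setting 3.

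RefSeq promoter windows, from 250 bases before to 50 bases after the gene start in build GRCm38.p6, were found for 5 of the 8 genes (Pax5, Pax8, Meis1, Dlx1 and Dlx2). Among the tested oligos of the 8 genes with a value on every array, the second Pax5 oligo differed most. Dlx1 and Dlx2 are neighbouring genes, each with an oligo called higher in thymus under quantile scaling. Neither of these oligos was called without scaling or with arrays centred on control genes, and the other oligo of each gene was not called. The windows of Pax5, Dlx1 and Dlx2 are shown 5′ to 3′ with CG dinucleotides in capitals.
Pax5, chr4:44710645-44710944, minus strand: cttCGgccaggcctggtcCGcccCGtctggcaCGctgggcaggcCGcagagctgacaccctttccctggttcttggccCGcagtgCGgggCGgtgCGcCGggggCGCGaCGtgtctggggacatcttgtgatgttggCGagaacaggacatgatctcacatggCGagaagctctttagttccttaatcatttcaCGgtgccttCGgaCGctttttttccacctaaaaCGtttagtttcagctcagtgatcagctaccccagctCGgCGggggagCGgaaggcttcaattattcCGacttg
Dlx1, chr2:71529195-71529494, plus strand: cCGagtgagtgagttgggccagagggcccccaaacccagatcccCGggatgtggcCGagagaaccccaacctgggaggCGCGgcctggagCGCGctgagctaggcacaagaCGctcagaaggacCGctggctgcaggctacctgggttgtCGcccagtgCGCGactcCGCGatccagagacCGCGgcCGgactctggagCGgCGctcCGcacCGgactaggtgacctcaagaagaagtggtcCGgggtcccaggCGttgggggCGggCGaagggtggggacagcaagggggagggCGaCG
Dlx2, chr2:71546705-71547004, minus strand: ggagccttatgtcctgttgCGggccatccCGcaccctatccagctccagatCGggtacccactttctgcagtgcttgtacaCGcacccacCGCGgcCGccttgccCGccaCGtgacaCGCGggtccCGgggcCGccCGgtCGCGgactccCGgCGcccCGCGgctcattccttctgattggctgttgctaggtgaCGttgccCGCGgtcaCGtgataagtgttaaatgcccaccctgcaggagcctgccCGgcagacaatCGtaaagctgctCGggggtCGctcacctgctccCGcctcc
The Dlx2 window held 29 CG dinucleotides, more than 87.0% of all 32544 promoter windows of that table hold, the Dlx1 window 27 and the Pax5 window 23. The Meis1 window held 15 and the Pax8 window 7, where the median of all windows was 7. The homeodomain motif TAATTA and the MEIS motif TGACAG, looked for on both strands, occurred in none of the 5 windows. They occurred in 5.29% and 19.1% of all windows. CG content and motifs are a description of these windows and were looked at after the array values were seen.

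Of the 15 oligos, 4 were above background on all 6 arrays and 3 on none. Spots counted as above background when their median signal lay over 2 SD of the local background beyond its median, and an oligo counted when more of its unmarked spots did than did not. On the cortex arrays 11, 9 and 8 of the 15 were above background, a mean of 9.33 ± 1.53 (SD, n = 3), and on the thymus arrays 11, 6 and 9, a mean of 8.67 ± 2.52 (SD, n = 3). The tissues overlapped, and the two-sided exact permutation test gave p = 1, where 0.1 is the smallest p possible for 3 arrays against 3. Over the whole array, 419 to 509 of the 590 oligos were above background on the cortex arrays and 270 to 393 on the thymus arrays. This difference was not tested, and since the members were chosen with earlier results known, setting them beside it supports no claim. Of 180 readings of the 30 spots, 10 were marked as bad in the files and left out.

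**Figure D1:**
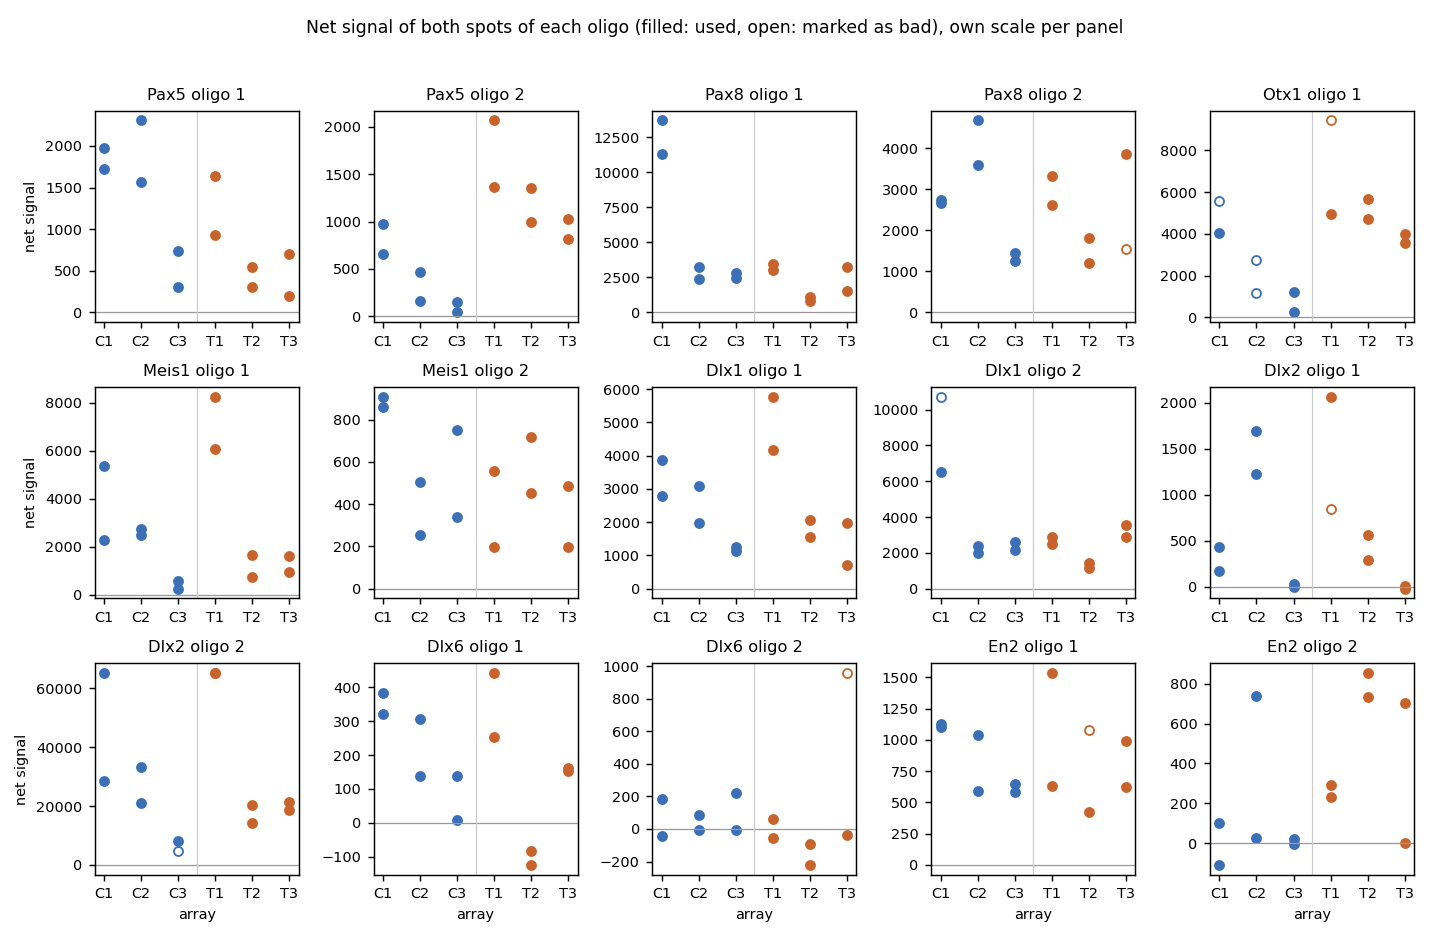
Net signal (signal minus local background, in scanner units) of the 2 spots of each of the 15 oligos on the cortex arrays (C1 to C3, blue) and thymus arrays (T1 to T3, orange), where open points were marked as bad and each panel has its own axis. The second Pax5 oligo is higher on the thymus arrays, with array means of 924 to 1719 against 96.8 to 818, while no used spot of Dlx6 exceeds 442.5.

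Under quantile scaling, which gives all arrays the same distribution of values, 7 oligos of 7 genes were higher in thymus and none was higher in cortex (limma, Benjamini-Hochberg adjusted p under 0.05 over all 465 tested oligos). These were the second oligos of Pax5, Pax8 and Dlx2, the first oligos of Meis1, Dlx1 and En2, and the oligo of Otx1. Only the 10 of the 15 oligos that were above background on at least 3 of 6 arrays were tested, and the other 3 of the 10 did not pass. Of all 465 tested oligos, 23.7% were called higher in thymus and 24.3% higher in cortex. The median difference of the 10 was -1.11 log2 units, cortex minus thymus, where that of all tested oligos was -0.10. Without scaling the median of the 10 was -0.09 and that of all was 0.86, and none of the 10 passed in limma, where the calls over all oligos were 0 for thymus and 117 for cortex. At an unadjusted p under 0.05, 1 of the 10 was higher in thymus without scaling, the second Pax5 oligo, against 1.29% of all tested oligos. Without scaling limma gave every oligo with complete values the same SE, 0.73. That p therefore rests on a spread pooled over all tested oligos and not on the spread of this oligo alone. Some oligos of the printed control genes were themselves called under quantile scaling, in both directions. The first of lamr1.1 was higher in thymus, at -2.48, and the first of cebpa.1 higher in cortex, at 2.55. With arrays centred on the control genes, 2 of the 10 were higher in thymus, the Otx1 oligo and the second Pax5 oligo. This compares with 6.02% of all, with 28 calls for thymus and 142 for cortex. The genes were chosen with earlier results of these data known, so these counts describe the members and support no claim about the families.

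**Figure D2:**
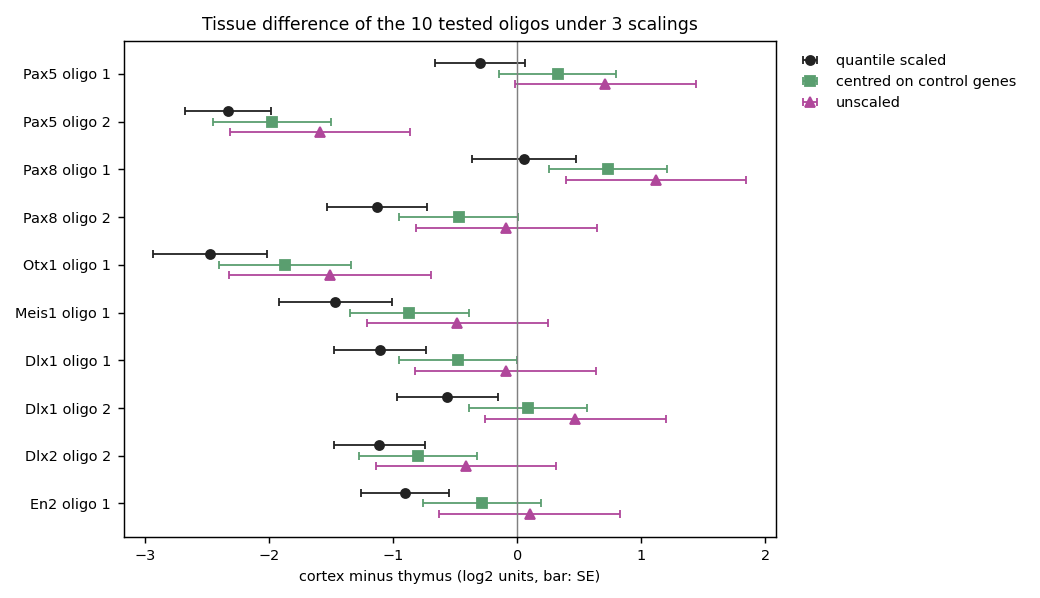
Difference between cortex and thymus (log2 units, cortex minus thymus, bars are SE, 3 arrays per tissue, for Otx1 2 cortex arrays) of the 10 tested oligos with quantile scaling (circles), centring on control genes (squares) and no scaling (triangles). The Otx1 oligo and the second Pax5 oligo lie below -1.5 under each scaling, and the first Pax5, second Dlx1 and first En2 oligos change sign without scaling.

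Pax5, the B-lineage factor, had 1 oligo that separated the tissues and 1 that did not. The net signals of the 2 spots of its second oligo were 974 and 662 on cortex 1, 160.5 and 468 on cortex 2, and 42.5 and 151 on cortex 3. On the thymus arrays they were 1369.5 and 2068.5, 994 and 1354, and 1029.5 and 818. The array means did not overlap, although the thymus arrays were dimmer as a whole, and the oligo was above background on 1 of 3 cortex and 3 of 3 thymus arrays. Of the unmarked blank spots, 13 of 123 on cortex 2 and 12 of 126 on cortex 3 were at least as bright, and none was on the other 4 arrays.

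On the scaled log2 scale the second Pax5 oligo had levels of 8.91, 8.52 and 8.62 in cortex and 10.90, 11.33 and 10.82 in thymus. The difference was -2.33 ± 0.35 log2 units (SE, n = 3 arrays per tissue; adjusted p = 5.17e-05, limma), and its cortex side rests on 2 arrays where the oligo was not above background. Unscaled, the levels of 10.12, 9.10 and 7.56 in cortex and 10.94, 10.46 and 10.15 in thymus still did not overlap, by a narrow margin, and the difference was -1.59 ± 0.73 (adjusted p = 0.098, limma). It was the only one of the 10 tested oligos without overlap on the unscaled values, where 1.94% of all tested oligos had every thymus array above every cortex array. It was -2.18 within scan setting 1 and -2.71 within setting 2 when scaled, and -1.33 and -2.89 unscaled.

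The first Pax5 oligo gave other values. Its mean net signals were 1851, 1939 and 521 on the cortex arrays and 1284, 425.5 and 445.5 on the thymus arrays, which overlapped. It was above background on 3 cortex arrays and 1 thymus array, and its scaled difference of -0.30 ± 0.37 did not pass (adjusted p = 0.543, limma). The difference between the 2 oligos within an array, which no constant scaling of that array can change, was looked at after the values were seen. Second minus first, it was -0.95, -1.98 and -1.62 log2 units on the cortex arrays and 0.37, 1.09 and 0.89 on the thymus arrays. These did not overlap, and the tissues differed by -2.30 (two-sided exact permutation test, p = 0.1, the smallest possible, and 0.3 adjusted over 3 genes). On 4 of these arrays 1 of the 2 oligos was not above background, the second on cortex 2 and 3 and the first on thymus 2 and 3, so the sizes there are not exact. The second oligo was the dimmer one on every cortex array and the brighter one on every thymus array. Which part of the transcript each oligo reads was not analysed here.

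Pax8, the thyroid and kidney factor, was above background with both oligos on all 6 arrays. Its second oligo had mean net signals of 2711, 4144 and 1349 on the cortex arrays and 2970, 1507 and 3872 on the thymus arrays, the last from 1 spot. The unscaled values overlapped and differed by -0.09 ± 0.73. Scaled, the levels were 10.34, 11.31 and 10.91 in cortex and 11.66, 11.60 and 12.70 in thymus, without overlap, a difference of -1.13 ± 0.40 (adjusted p = 0.0269, limma). That call was lost without cortex 1, cortex 3 or thymus 3, at -0.88, -1.18 and -0.80 (adjusted p = 0.174, 0.0689 and 0.102), and with scan setting as a block (-0.77, adjusted p = 0.112). Its adjusted p ran from 0.00988 to 0.945 over 22 alternatives.

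The first Pax8 oligo was brightest on cortex 1. Its mean net signals were 12528, 2816 and 2642 on the cortex arrays and 3271, 951 and 2384 on the thymus arrays. The tissues overlapped, and the scaled difference was 0.05 ± 0.42 (adjusted p = 0.939, limma). Within an array the second oligo minus the first was -2.08, 0.52 and -0.92 on the cortex arrays and -0.13, 0.54 and 0.73 on the thymus arrays, which overlapped (exact permutation p = 0.2, 0.3 adjusted).

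Otx1, the deep-layer cortical factor, was called higher in thymus under quantile scaling and centred on control genes, but not without scaling. Its 1 oligo had mean net signals of 4019 on cortex 1, from 1 spot, and 730 on cortex 3, from spots of 238 and 1222. Both spots on cortex 2, at 1182 and 2767, were marked as bad and gave no value. The thymus arrays read 4967.5, from 1 spot, 5193.5 and 3784.5. Cortex 1 lay between thymus 3 and thymus 1, so the unscaled values overlapped.

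On the scaled log2 scale the Otx1 levels were 10.87 and 9.77 in cortex and 12.32, 13.41 and 12.65 in thymus. These did not overlap, and the difference was -2.47 ± 0.46 (SE, 2 cortex and 3 thymus arrays; adjusted p = 0.000375, limma). Unscaled it was -1.51 ± 0.81 (adjusted p = 0.176). Centred on control genes it was -1.87 ± 0.53 (adjusted p = 0.00194). Within scan setting 1, where cortex 1 alone had a value, it was -1.45, and within setting 2, where the oligo was not above background on cortex 3, it was -3.64. The oligo was above background on 1 cortex and 3 thymus arrays, and its cortex mean rests on 2 arrays that lie apart.

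Meis1, a homeodomain factor of blood progenitors, differed on its first oligo under quantile scaling. The mean net signals of that oligo were 3828, 2616.5 and 415.5 on the cortex arrays and 7168, 1204.5 and 1279.5 on the thymus arrays. It was above background on 2 of 3 cortex and 2 of 3 thymus arrays, and not on cortex 3 and thymus 2. The tissues overlapped unscaled, with thymus 1 the brightest and cortex 3 the dimmest. The difference was -0.48 ± 0.73 unscaled (adjusted p = 0.70, limma) and -0.87 ± 0.48 centred on control genes (adjusted p = 0.15, limma). Scaled, the levels of 10.72, 10.72 and 9.37 in cortex lay below those of 12.68, 11.29 and 11.25 in thymus, a difference of -1.47 ± 0.46 (adjusted p = 0.0134, limma). The call was lost without cortex 3 (-1.03, adjusted p = 0.113) and without thymus 1 (-1.0, adjusted p = 0.0986), and the adjusted p ran from 0.00131 to 0.70 over 21 alternatives. The second Meis1 oligo was above background on 2 cortex arrays and no thymus array and was not tested, and its mean net signals were 340 to 885 over all 6 arrays.

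Of the Dlx genes, which encode homeodomain factors of forebrain interneurons, Dlx1 and Dlx2 gave signal and Dlx6 did not. The first Dlx1 oligo had mean net signals of 3332, 2526.5 and 1185 on the cortex arrays and 4974, 1807 and 1356.5 on the thymus arrays. These overlapped. Scaled, the cortex levels of 10.60, 10.68 and 10.75 lay close together, with an SD of 0.08, and below the thymus levels of 12.30, 11.81 and 11.23, a difference of -1.11 ± 0.37 (adjusted p = 0.0196, limma). The call was lost without cortex 1 (-1.05, adjusted p = 0.0861), cortex 2 (-1.09, adjusted p = 0.0692) or thymus 1 (-0.85, adjusted p = 0.0933), and the adjusted p ran from 0.00373 to 0.945 over 22 alternatives.

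The second Dlx1 oligo did not pass. Its mean net signals were 6522 (from 1 spot), 2182 and 2371 on the cortex arrays and 2688.5, 1278.5 and 3221 on the thymus arrays, which overlapped. The scaled difference was -0.56 ± 0.41 (adjusted p = 0.282, limma). Within an array the second oligo minus the first was 0.93, -0.16 and 0.94 on the cortex arrays and -0.81, -0.42 and 1.25 on the thymus arrays (exact permutation p = 0.6).

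The 2 oligos of Dlx2 read differently. The second was bright on every array, with mean net signals of 46778, 27118.5 and, from 1 spot, 8177.5 on the cortex arrays and 65188, 17300.5 and 19876 on the thymus arrays. Both of its spots on thymus 1 and 1 spot on cortex 1 were saturated, so those values are lower limits and the differences below are not exact. The tissues overlapped unscaled, at -0.41 ± 0.73. Scaled, the levels of 14.32, 13.83 and 13.67 in cortex lay below those of 15.53, 14.68 and 14.95 in thymus, a difference of -1.11 ± 0.37 (adjusted p = 0.0196, limma). The call was lost without cortex 2 (-1.12, adjusted p = 0.0669), cortex 3 (-0.98, adjusted p = 0.0751) or thymus 1 (-0.82, adjusted p = 0.104), and the adjusted p ran from 0.00472 to 0.744 over 22 alternatives.

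The first Dlx2 oligo was above background on 1 cortex and 1 thymus array and was not tested. Its mean net signals were 306, 1458.5 and 14.8 on the cortex arrays and 2067, from 1 spot, 430 and -7.75 on the thymus arrays. The tissues overlapped, and on thymus 3, 97 of 120 unmarked blank spots were at least as bright.

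Dlx6 was not detectable with either oligo on any array. The first oligo had mean net signals of 351, 222 and 73.2 on the cortex arrays and 348, -104.5 and 158 on the thymus arrays. The second had 68.2, 42.0 and 106.5 on the cortex arrays and 5.0, -155.5 and, from 1 spot, -35.0 on the thymus arrays. On every array some blank spots were at least as bright as either oligo, the fewest being 7 of 126 for the first oligo on cortex 1.

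En2, a homeobox gene of midbrain and cerebellum, was above background with its first oligo on 3 cortex and 2 thymus arrays. The mean net signals of that oligo were 1116, 814 and 615 in cortex and 1084, 422 (from 1 spot) and 806 in thymus, which overlapped. Scaled, the levels of 9.31, 9.28 and 9.91 in cortex lay below those of 10.35, 10.23 and 10.64 in thymus, by -0.91 ± 0.36 (adjusted p = 0.0437, limma). Without scaling the sign turned, at 0.10 ± 0.73. The call passed in 9 of 21 alternatives, with an adjusted p from 0.0208 to 0.942, and was lost without cortex 1, cortex 2, thymus 1 or thymus 3 (-0.80, -0.79, -0.95 and -0.79; adjusted p = 0.192, 0.148, 0.071 and 0.0943) and with a block for the replicate number (-0.91, adjusted p = 0.067) or for scan setting (-0.74, adjusted p = 0.0767). The second En2 oligo was above background on no array, with mean net signals of -4.25, 382 and 10.8 in cortex and 263.5, 795 and 351.5 in thymus, and was not tested.

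Quantile scaling rests on the order of signals within an array, and that order is given here in plain units, as a restatement of the scaled levels and not as a further check. For each tested oligo the share of the gene oligos of an array with a lower net signal was compared between arrays. For the second Pax5 oligo that share was 17.8%, 11.4% and 13.4% on the cortex arrays and 65.7%, 73.0% and 63.6% on the thymus arrays. For Otx1 it was 63.8% and 44.7% in cortex and 86.9%, 95.2% and 89.8% in thymus. For the first En2 oligo it was 27.1%, 26.8% and 40.3% in cortex and 54.7%, 47.9% and 59.5% in thymus. The first Pax5, first Pax8 and second Dlx1 oligos overlapped between the tissues, and the 7 called oligos did not, and on the quantile-scaled levels 29.2% of all tested oligos had every thymus array above every cortex array.

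**Figure D3:**
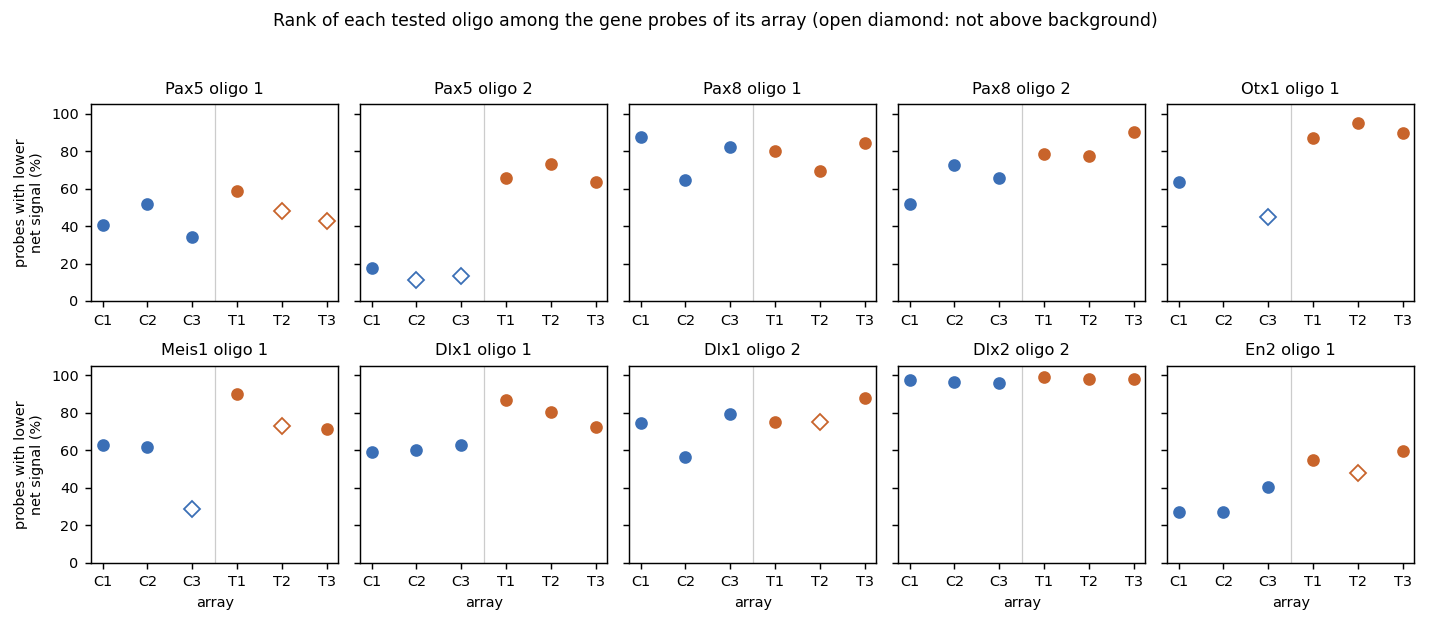
Share of gene oligos on the same array (%) with a lower net signal than the oligo named above each panel, on cortex arrays (C1 to C3, blue) and thymus arrays (T1 to T3, orange), with open diamonds where the oligo was not above background. The second Pax5 oligo ranks above 11.4% to 17.8% of oligos in cortex and 63.6% to 73.0% in thymus.

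Tissue differences over all tested oligos varied with position on the slide. The spots were printed in 8 blocks, in 4 rows of 2. In block row 3, 50 of 120 tested oligos, or 41.7%, were higher in thymus under quantile scaling, against 60 of 345, or 17.4%, in the other rows. The median difference was -0.66 in block row 3 and 0.02 elsewhere. Of the 7 called oligos, 4 lay in block row 3: Otx1, the second Pax5, the first Dlx1 and the first En2 oligo. The first Pax5 oligo was tested, lay there too and was not called. In the other rows 3 were called, and the first Pax8 and second Dlx1 oligos were tested and not called.

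After each block was centred on its median on each array, a setting chosen after seeing the data, 5 of the 10 tested oligos were higher in thymus, against 24.5% of all 465. Those of Pax5 (-1.96 ± 0.26, adjusted p = 0.00036), Otx1 (-2.06 ± 0.40, adjusted p = 0.00337), Meis1 (-1.61 ± 0.37), Dlx2 (-1.25 ± 0.29) and Pax8 (-1.17 ± 0.32) passed in limma. The first Dlx1 oligo, at -0.74 ± 0.29 (adjusted p = 0.0605), and the first En2 oligo, at -0.54 ± 0.34 (adjusted p = 0.225), did not. Whether position or the genes printed there set the block medians was not tested.

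**Figure D4:**
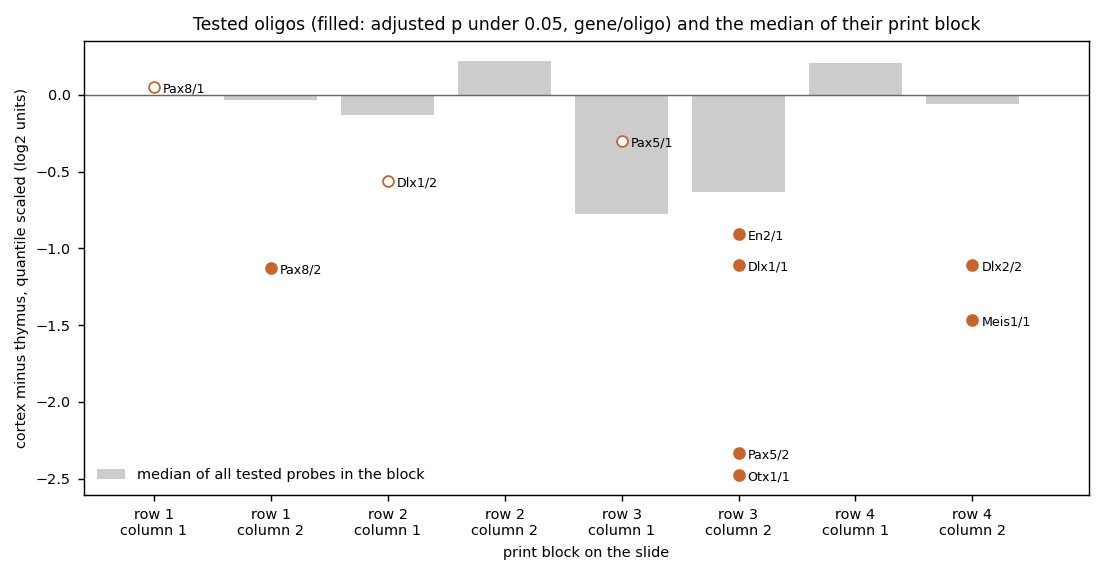
Difference between cortex and thymus (log2 units, quantile scaled, cortex minus thymus) of the 10 tested oligos, named as gene and oligo number, by print block, with bars for the median of all tested oligos in the block and filled points for an adjusted p under 0.05. The 2 blocks of row 3 have medians of -0.78 and -0.63, and 4 of the 7 filled points lie in the second of them.

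The other 13 entries of the class DEVELOPMENT, among them Dlx3, Dlx5, En1, Otx2, Pax2 and Pax6, had 25 oligos, of which 14 were tested. Under quantile scaling 1 was higher in cortex and none in thymus, also at an unadjusted p under 0.05 in limma, with a median difference of -0.18. Of all 465 tested oligos, 24.3% were called higher in cortex and 23.7% higher in thymus. Since the 8 genes were chosen with earlier results of these data known, their contrast with the rest of the class supports no claim. The 1 oligo of these 14 higher in cortex was the second of the entry printed Pbx1b. That gene encodes a homeodomain protein that binds DNA together with Meis proteins. The mean net signals of this oligo were 8229, 4833 and 3108 on the cortex arrays and 985, 273.5 and 1277 on the thymus arrays, without overlap. It differed by 1.36 ± 0.40 scaled (adjusted p = 0.0104, limma) and 2.39 ± 0.73 unscaled (adjusted p = 0.00585). Without scaling both Pbx1b oligos passed, the first at 1.82 ± 0.73 (adjusted p = 0.0496).

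Oligos of other genes were ranked by how near their pattern over the 6 arrays lay to that of each called oligo, as the Euclidean distance of scaled log2 values centred on each oligo's mean, over 537 oligos with complete values. Nearest to the second Pax5 oligo were an oligo of the control printed lamr1.1, at 0.76 log2 units and above background on all 6 arrays, and the first oligo of Scnn1b, an epithelial sodium channel subunit, at 0.80 and above background on 5. Nearest to the first Meis1 oligo were the second Scnn1b oligo, at 0.77, and the first Pax6 oligo, at 0.85, each above background on only 2 arrays. The first Dlx1 oligo lay nearest to one of the pituitary hormone printed PRL, at 0.44 and above background on 4 arrays, and to the first oligo of the GABA receptor gene Gabrr2, at 0.49 and above background on 0. For the second Dlx2 oligo the nearest were a control printed Shfdg1.1, at 0.40, and a potassium channel printed kv3,4a, at 0.47. For the first En2 oligo they were one printed P75ngf, at 0.34, and a control printed Ppox.1, at 0.35. The second Pax8 oligo lay nearest to a nicotinic receptor oligo printed gamma, at 0.57, and to the first oligo of the growth factor gene Tgfa, at 0.67. These last 6 were above background on all 6 arrays, and Otx1, which lacks a value on cortex 2, was not compared.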

How the data were processed

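The values used were spot intensities, on the scanner's linear scale with no normalization, as deposited by the authors. Per the file headers, spots were segmented automatically and a local background was measured at each; another deposited column marks bad spots. No source used here names the software. The authors' deposited value table, with scaled intensity for 20 oligos, has 0 of the 15 and was not used.

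Signal medians were background-corrected with normexp (offset 50) in limma 3.58.1 (R 4.3.3). Bad spots were left out, the log2 values of an oligo's spots were averaged, and quantile normalization followed. The fit (lmFit, eBayes; two-sided; cortex minus thymus) took oligos that 3 or more arrays showed above background and that had 2 or more values in each tissue, and its p-values were Benjamini-Hochberg adjusted over all 465. Without scaling, limma gave every oligo with complete values the same SE, so those p-values rest on a spread pooled over all tested oligos. Centred on control genes, the SEs of the members' oligos with complete values were also close, at 0.47 to 0.48. The code was tested on simulated data. The precision is limited by the number of arrays. Accessions in the RefSeq table of GRCm38.p6 named Pax5 and Pax8; the printed names of the other 6 genes matched its symbols.

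The members and lists were chosen with earlier results of these data known. All oligos of the members are named, with the 3 most changed called oligos per direction of the rest of the class, the 2 oligos nearest to each called one with complete values, and the marker oligos. Alternatives covered background correction, scaling, filter, spots, blocks and arrays left out. Python 3.11.15, pandas 2.3.3, numpy 2.4.6 and matplotlib 3.10.9 read sequences and drew figures.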

Additional observations from a re-analysis of the deposited data

How the results depend on the processing

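Quantile scaling called 7 of the members' oligos and 223 of all. Without scaling limma called 0 of the members' (1 at an unadjusted p under 0.05, the second Pax5 oligo), 117 of all and 2 of the rest of the class. Centring on control genes called 2, 170 and 3. Without the filter on dim oligos 15 were tested and 7 passed, with the second En2 oligo in place of the first, against 231 of all 582, and 2 of the rest of the class passed. Over oligos above background on all 6 arrays 3 of the members', 81 of all and 0 of the rest passed, among 4, 186 and 6 tested (limma). Leaving out 1 array gave 3 to 7 members' oligos, 111 to 219 of all and 0 to 4 of the rest. The members' count was 3 without cortex 1, 4 without cortex 2, 3 without cortex 3 and 3 without thymus 1, among 9 or 10 tested, and the second Pax5 oligo passed in all 6 such fits. Chosen after seeing the data, leaving out the 2 arrays of coarse pixel grid gave 2 and 110, and centring on print blocks gave 3 of the rest. Arrays of the same replicate number had low correlations of deviations (0.17, -0.09 and 0.01). By the dates in the file headers, however, cortex 1 and thymus 1 shared a day, and the other arrays each had their own. Without scaling, the replicate block lowered the SE of the members' oligos with complete values from 0.73 to 0.59. A pairing by replicate number is therefore not excluded. With the replicate block 6 members' oligos and 210 of all passed; with the replicate block and no scaling, added later, 1, 157 and 3 of the rest.

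Signs turned for the first Pax5 (0.71), second Dlx1 (0.47) and first En2 oligo (0.10) without scaling, with or without the replicate block, and for the first Pax5 (0.33) and second Dlx1 oligo (0.084) centred on control genes. The first Pax8 oligo turned in fits without 1 array, where it ran from -0.26 to 0.48, and was -0.33 without the coarse-grid arrays. The cause was not tested. The count of oligos above background per array turned from 0.67 higher in cortex to -1 with 1 SD of background in place of 2. Over the alternatives, 155 of 211 single values kept direction and side of the threshold. This count includes the first Pax5, first Pax8 and second Dlx1 oligos, at 18 each, which passed in no alternative. The called oligos passed in between 9 of 21 alternatives, for the first En2 oligo, and 20 of 21, for the second Pax5 oligo. The value table gave no alternative, as it holds none of the genes.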

Other observations

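The first Pax8 oligo was not alone in its high reading on cortex 1. The first oligo of Dlx3 had mean net signals of 6884, 1790 and 1361.5 on the cortex arrays and 2941.5, 705 and 2267 on the thymus arrays. Its scaled difference of -0.58 ± 0.42 did not pass (adjusted p = 0.284, limma). Cortex 1 was also the brightest array, with a median net signal over gene spots of 2491, against 1763 and 816.5 on cortex 2 and 3. The cause of these high readings was not tested.

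The 2 spots of an oligo differed by a median of 0.37 log2 units over the 48 pairs of unmarked spots of the 8 genes in which both were above background. Over the 2123 such pairs of all other oligos the median was 0.30. In 1 pair in 10 the spots of the 8 genes differed by at least 0.96, and those of all other oligos by at least 0.79.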
